A study of Homo sapiens with 4 samples.

Results

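Interferon-stimulated genes are the transcripts that cells switch on when interferon reaches them, and their products hold back viruses at many steps. The genes described here were a list of 43 named genes. A probe set that the platform annotation assigns to a single gene was listed for 41 of the 43, and all 41 passed the filter on low values, out of 15946 genes tested. STAT2 had no probe set in the annotation used here, and GBP1 had only a probe set shared with GBP3 and GBP1P1, so neither has a value. RNA came from 4 groups of 1 array each. MDA-MB231 cells expressing FBP1 and MDA-MB231 control cells formed one pair, and Hs578T cells expressing FBP1 and Hs578T control cells the other. MDA-MB231 and Hs578T are established human lines labelled basal-like breast cancer, and FBP1 encodes fructose-1,6-bisphosphatase, an enzyme of glucose synthesis. The FBP1 cells were stable clones; how many clones entered an array, and whether the control cells carried a vector, is not stated in the labels. All cells were grown in DMEM/F12 with serum, and harvested in logarithmic growth, and the labels name no interferon or virus.

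As background, type I and type III interferons bind their receptors and activate the kinases JAK1 and TYK2, which pass the signal on to a complex that holds STAT2 and IRF9. It binds the interferon-stimulated response element, a short repeat in the promoters of responding genes. Type II interferon acts through JAK1 and JAK2, and several of the listed genes, such as IRF1 and GBP2, respond to it. Many cancer lines keep part of this programme switched on in culture without added interferon.

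The promoters of 6 members on which the results below turn are shown. The response element is a route by which type I and type III interferons reach responding genes, and other elements were not marked. Each window runs from 250 bases before the annotated start to 50 after it, is read 5′ to 3′ along the gene, and comes from RefSeq on GRCh38.p14. The windows are IFI44 (chr1:78649539-78649838, plus strand), IFI44L (chr1:78620198-78620497, plus strand), BST2 (chr19:17405581-17405880, minus strand), TLR3 (chr4:186068906-186069205, plus strand), IFI27 (chr14:94110486-94110785, plus strand), HERC5 (chr4:88456869-88457168, plus strand). Where RefSeq gives several starts, the window with the lowest coordinate was taken. Capitals mark each match to the core of the response element, searched as GAAA, any 2 bases, GAAA on both strands (as TTTC, any 2 bases, TTTC on the other); matches that overlap were counted separately.
IFI44: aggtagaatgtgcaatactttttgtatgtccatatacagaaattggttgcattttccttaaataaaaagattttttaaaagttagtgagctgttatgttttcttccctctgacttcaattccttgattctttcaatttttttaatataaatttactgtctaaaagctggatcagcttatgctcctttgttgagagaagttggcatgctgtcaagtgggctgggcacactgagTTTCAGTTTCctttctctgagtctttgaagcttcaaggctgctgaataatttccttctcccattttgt
IFI44L: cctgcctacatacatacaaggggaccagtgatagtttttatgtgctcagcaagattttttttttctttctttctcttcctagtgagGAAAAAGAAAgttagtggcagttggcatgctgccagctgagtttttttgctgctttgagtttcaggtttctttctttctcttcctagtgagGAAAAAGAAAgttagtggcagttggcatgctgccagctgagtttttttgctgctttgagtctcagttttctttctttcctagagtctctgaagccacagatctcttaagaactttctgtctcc
BST2: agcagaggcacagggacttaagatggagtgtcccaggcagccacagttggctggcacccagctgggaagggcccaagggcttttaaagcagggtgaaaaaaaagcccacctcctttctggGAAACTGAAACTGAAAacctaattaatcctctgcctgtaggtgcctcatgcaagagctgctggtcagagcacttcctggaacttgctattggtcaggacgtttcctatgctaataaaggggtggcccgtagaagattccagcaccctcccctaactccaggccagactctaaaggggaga
TLR3: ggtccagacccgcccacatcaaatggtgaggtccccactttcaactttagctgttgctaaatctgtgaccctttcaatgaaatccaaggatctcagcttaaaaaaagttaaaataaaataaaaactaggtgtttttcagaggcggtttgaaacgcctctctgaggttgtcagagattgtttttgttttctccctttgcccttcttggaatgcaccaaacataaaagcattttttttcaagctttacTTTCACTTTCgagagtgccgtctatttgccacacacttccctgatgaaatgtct
IFI27: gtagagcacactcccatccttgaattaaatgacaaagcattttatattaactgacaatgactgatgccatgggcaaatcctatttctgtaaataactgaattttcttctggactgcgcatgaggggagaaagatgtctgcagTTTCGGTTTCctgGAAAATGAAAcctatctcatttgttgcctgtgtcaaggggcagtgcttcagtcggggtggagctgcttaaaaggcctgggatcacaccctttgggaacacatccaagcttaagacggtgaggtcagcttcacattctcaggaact
HERC5: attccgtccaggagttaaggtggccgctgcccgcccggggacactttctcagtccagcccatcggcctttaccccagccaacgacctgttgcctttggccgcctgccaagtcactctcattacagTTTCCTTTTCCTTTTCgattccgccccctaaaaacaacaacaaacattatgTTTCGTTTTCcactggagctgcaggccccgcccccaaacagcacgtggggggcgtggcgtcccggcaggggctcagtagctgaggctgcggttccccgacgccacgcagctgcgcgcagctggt

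Counted from the start site, with no base zero, the match in IFI44 began at −18 and the match in TLR3 at −4. IFI44L had matches at −164 and −73, BST2 had overlapping matches at −130 and −124, and IFI27 had matches at −108 and −95. HERC5 had 3, at −125, −119 and −74. A promoter was listed for 34 of the 43 members, and 23 of the 34 (67.6%) held at least 1 match in a window. Over all 27305 genes with a listed promoter the share was 4.38%, and over all 35116 windows it was 3.57%. A match is a stretch of letters and not a shown binding site, and repeats with a shorter gap were not counted.

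The introduced gene was as labelled: log2 intensity of FBP1 was 13.07 in MDA-MB231 with FBP1 against 9.83 in its control, and 13.35 in Hs578T with FBP1 against 6.35 in its control. Medians over all probe sets lay between 7.83 and 7.86 on the 4 arrays. Of the markers of basal-like cells, EGFR lay between 10.63 and 11.05 and VIM between 13.71 and 13.72, whereas KRT5 lay between 6.80 and 6.93, close to the filter level of 6.16. Of 6 markers of leukocytes and plasmacytoid dendritic cells, the main interferon makers, 0 passed the filter, and PTPRC lay between 4.52 and 4.96. Fibroblast markers differed between the lines, and 7 of 7 were lower in MDA-MB231 by limma at adjusted p under 0.05, against 19% of all genes. DCN and FAP lay below the filter level on both MDA-MB231 arrays and passed it through Hs578T, so their direction was fixed. Of 7 luminal markers kept 4 were higher, against 21.8% of all genes, and 0 lower. The 4 were KRT19 (16.6-fold), KRT8 (10.4-fold), EPCAM (8.25-fold) and GATA3 (1.77-fold). The part of these markers in the line differences below was not tested. With FBP1 in Hs578T the basal keratin gene KRT14 differed from control by 0.77 and the fibroblast gene FAP by −1.34, and their part in the changes below was not tested. With 1 array per group, a change between FBP1 and control within a line has no replicate check and no test, and the small number of arrays limits the precision of every value. In RNA from a whole culture, fewer cells expressing a gene and less RNA of it per cell cannot be told apart.

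The first comparison asked what the interferon-stimulated genes did when FBP1 was expressed. In Hs578T, IFI44, BST2, TLR3 and IFI44L were at least 1.5-fold lower with FBP1 than in control, and GBP2 and IFI27 at least 1.5-fold higher. In MDA-MB231, RSAD2 was the member past 1.5-fold, and it was lower. The remaining 34 of 41 members lay within 1.5-fold of control in both lines. At least 1.5-fold lower were thus 1 of 41 in MDA-MB231 and 4 of 41 in Hs578T, where 0.326% and 1.69% of all genes tested were that much lower. At least 1.5-fold higher were 0 of 41 in MDA-MB231 and 2 of 41 in Hs578T, where 0.301% and 1.39% of all genes were.

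Below control at any size were 30 of 41 members in MDA-MB231 (73.2%, against 51.8% of all genes) and 23 of 41 in Hs578T (56.1%, against 45.1%). In both lines at once 18 members lay below control (43.9%, against 24% of all genes), 6 lay above it, and 17 had opposite signs. The median log2 change of the members was −0.140 in MDA-MB231 and −0.0585 in Hs578T, beside −0.00528 and 0.0213 for all genes. Across the 41 members the changes in the lines correlated weakly (Pearson r = 0.208, Spearman rho = 0.210). Over all genes r was 0.0659 and rho 0.0357, and without FBP1 itself they were 0.0331 and 0.0356. The lines share no array, but members share array scaling and are not independent of each other.

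**Figure D1:**
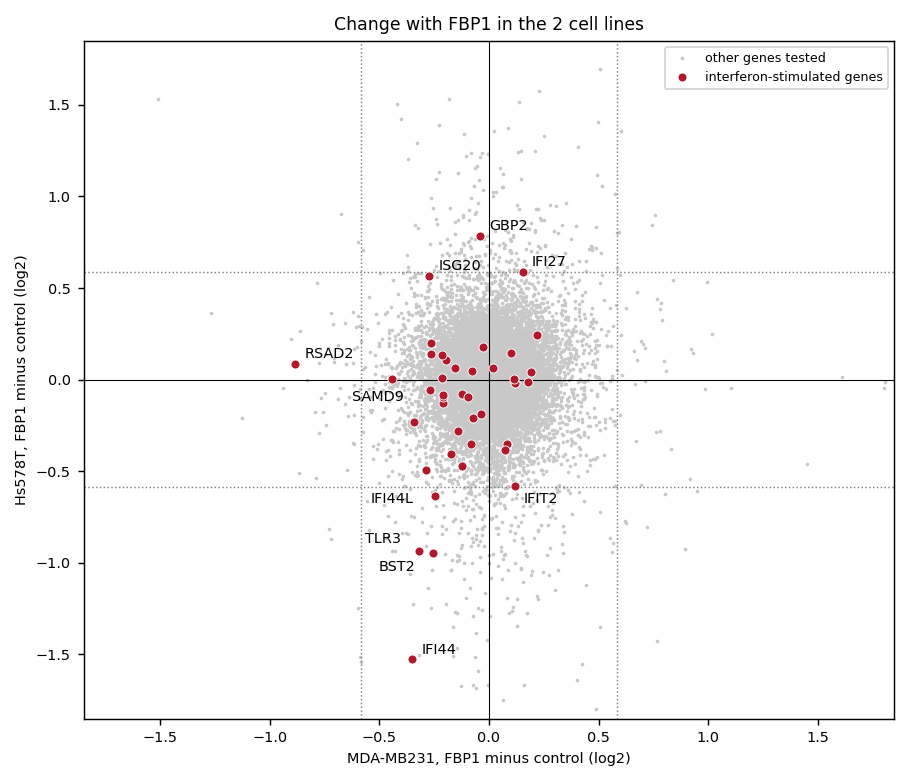
Each point is a gene, with its log2 change between FBP1 and control in MDA-MB231 on the x axis and in Hs578T on the y axis. Red points are the 41 interferon-stimulated genes, grey points the other genes tested (6 genes outside the axes, FBP1 among them, are not drawn), and dotted lines mark 1.5-fold; IFI44 lies lowest of the red points at −0.35 and −1.53, and RSAD2 farthest left at −0.88 and 0.09.

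Both lines were then fitted together with limma, with the lines as the replication. Of the 41 members 0 were called at adjusted p under 0.05, as were 0 of all 15946 genes (0%), the introduced FBP1 included. At unadjusted p under 0.05 limma gave 8 of 41 members lower with FBP1, against 2.43% of all genes, and 1 of 41 higher, against 2.71%. The 8 were TLR3 (unadjusted p = 0.00774), IFI44 (0.0112), MX2 (0.0118), BST2 (0.0131), IFI44L (0.0146), SAMD9L (0.0294), IFIH1 (0.0444) and IFITM1 (0.0483), and the 1 higher was IFI27 (0.0325). Each of the 9 had a limma adjusted p of 0.943. The error of this fit is the disagreement between the changes of the lines, moderated by the spread over all genes, and not a spread between repeated cultures.

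**Figure D2:**
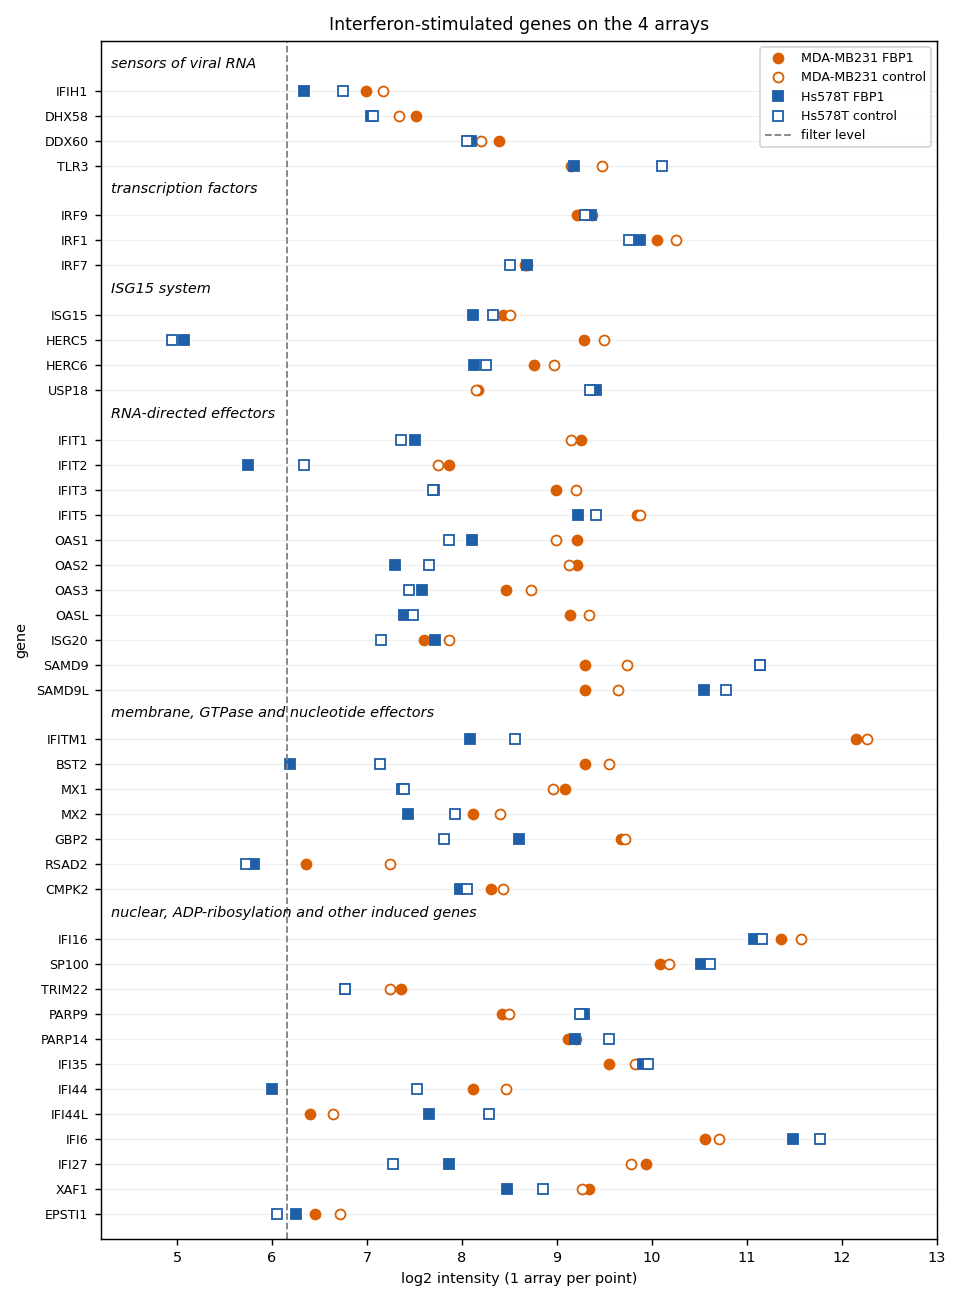
Log2 intensity of the 41 measured genes, in rows grouped by role, with 1 point per array: filled circles for MDA-MB231 with FBP1, open circles for MDA-MB231 control, filled squares for Hs578T with FBP1 and open squares for Hs578T control. The dashed line is the filter level of 6.16; HERC5 lies below it on both Hs578T arrays and near 9.3 to 9.5 on the MDA-MB231 arrays.

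Among the sensors of viral RNA, TLR3, the endosomal receptor for double-stranded RNA, was 9.15 with FBP1 against 9.47 in control in MDA-MB231, and 9.17 with FBP1 against 10.11 in control in Hs578T. Its log2 change was −0.32 in MDA-MB231 and −0.93 in Hs578T, where it was 1.91-fold lower, and the Hs578T control stood above the other 3 arrays. IFIH1, which encodes the cytosolic sensor MDA5, was 6.99 with FBP1 against 7.17 in control in MDA-MB231, and 6.34 against 6.74 in Hs578T, lower with FBP1 in each line. DHX58, the LGP2 helicase that modulates MDA5, stood at 7.51 with FBP1 against 7.34 in control in MDA-MB231, and at 7.04 against 7.06 in Hs578T. DDX60, a helicase linked to antiviral sensing, stood at 8.39 against 8.20 in MDA-MB231 and 8.09 against 8.05 in Hs578T. The 4 sensors thus did not share a direction.

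Of the 4 transcription factors, 3 were measured, and each lay below control in MDA-MB231 and above it in Hs578T by small amounts. IRF9, the DNA-binding partner of STAT2, stood at 9.21 with FBP1 against 9.36 in control in MDA-MB231, and 9.36 against 9.30 in Hs578T. IRF1, induced chiefly by type II interferon, stood at 10.06 against 10.25 in MDA-MB231 and 9.87 against 9.76 in Hs578T. IRF7, which amplifies interferon production, stood at 8.66 against 8.69 in MDA-MB231 and 8.68 against 8.50 in Hs578T. The largest of these changes was −0.20 on the log2 scale, for IRF1 in MDA-MB231.

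ISG15 is a ubiquitin-like protein that HERC5 attaches to targets and USP18 removes; USP18 also blocks the type I interferon receptor. ISG15 was 8.43 with FBP1 against 8.51 in control in MDA-MB231, and 8.11 against 8.32 in Hs578T. USP18 stood at 8.16 against 8.15 in MDA-MB231 and 9.41 against 9.35 in Hs578T. HERC6, a relative of HERC5, was 8.76 against 8.97 in MDA-MB231 and 8.13 against 8.26 in Hs578T. HERC5 itself was 9.28 against 9.49 in MDA-MB231 and only 5.08 against 4.94 in Hs578T, both below the filter level. The separation of HERC5 by line was far wider than its difference with FBP1.

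The 11 RNA-directed effectors include the IFIT proteins, which bind viral RNA, and the OAS enzymes, which make the messenger that activates RNase L. Their log2 changes with FBP1 ranged between −0.44 and 0.22 in MDA-MB231 and between −0.58 and 0.57 in Hs578T. Below control were 7 of 11 in MDA-MB231, against 51.8% of all genes, and 5 of 11 in Hs578T, against 45.1%. OAS1 was above control in each line, at 9.21 with FBP1 against 8.99 in MDA-MB231 and 8.11 against 7.87 in Hs578T. IFIT2 was 7.87 with FBP1 against 7.75 in control in MDA-MB231, and 5.75 against 6.33 in Hs578T, a log2 change of −0.583, just inside the 1.5-fold limit of 0.585; it was −0.60 after quantile normalization and −0.59 with arrays centred on their medians, past that limit. The exonuclease gene ISG20 was 7.59 with FBP1 against 7.87 in control in MDA-MB231, and 7.72 against 7.15 in Hs578T. SAMD9 and SAMD9L, which restrict poxviruses and translation, neighbour each other in RefSeq. SAMD9L was 9.29 with FBP1 against 9.64 in control in MDA-MB231, and 10.55 against 10.78 in Hs578T, lower in each line. SAMD9 was 9.29 against 9.73 in MDA-MB231 and 11.14 on both Hs578T arrays.

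BST2, or tetherin, holds budding virus at the cell surface. It was 9.29 with FBP1 against 9.55 in control in MDA-MB231, and 6.19 with FBP1 against 7.13 in control in Hs578T, where it was 1.93-fold lower and the FBP1 array lay just above the filter level. IFITM1, which blocks virus entry, was 12.14 against 12.26 in MDA-MB231 and 8.08 against 8.55 in Hs578T; its probes may also bind the similar IFITM2 and IFITM3, so its value is uncertain. MX2, a GTPase that acts on nuclear entry of HIV, was 8.11 against 8.40 in MDA-MB231 and 7.43 against 7.93 in Hs578T. These 3 members were lower with FBP1 in each line, whereas the neighbouring GTPase gene MX1 stood at 9.08 against 8.96 in MDA-MB231 and 7.37 against 7.39 in Hs578T.

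RSAD2 encodes viperin, which makes a chain-terminating nucleotide from the substrate that the CMPK2 kinase supplies, and the genes are adjacent. RSAD2 was 6.36 with FBP1 against 7.24 in control in MDA-MB231, a log2 change of −0.88, and 5.81 against 5.73 in Hs578T, where both arrays were below the filter level. CMPK2 was 8.31 against 8.43 in MDA-MB231 and 7.97 against 8.05 in Hs578T. The guanylate-binding GTPase gene GBP2 was 9.67 with FBP1 against 9.72 in control in MDA-MB231, and 8.60 with FBP1 against 7.81 in control in Hs578T, 1.72-fold higher. A second GBP2 probe set gave changes of 0.20 in MDA-MB231 and 0.56 in Hs578T, the Hs578T value just inside 1.5-fold, so the probe sets were both above control in Hs578T but differed in sign in MDA-MB231.

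IFI44 and IFI44L are related genes of little known function that lie side by side. IFI44 was 8.11 with FBP1 against 8.46 in control in MDA-MB231, and 5.99 with FBP1 against 7.52 in control in Hs578T, 2.88-fold lower, the largest change of any member in either line. The Hs578T FBP1 value lay below the filter level, so the size of this fold is uncertain. IFI44L was 6.40 against 6.65 in MDA-MB231 and 7.65 against 8.29 in Hs578T, 1.55-fold lower. The mitochondrial protein gene IFI27 went the other way, at 9.93 with FBP1 against 9.78 in control in MDA-MB231 and 7.86 against 7.27 in Hs578T. Its log2 change of 0.590 in Hs578T lay just past the 1.5-fold limit, and with each array centred on its median it was 0.58 and no longer past it.

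The remaining members of this role differed by less than 1.5-fold in both lines. IFI6, which protects against flavivirus replication, was 10.56 with FBP1 against 10.70 in control in MDA-MB231, and 11.49 against 11.77 in Hs578T. IFI16, a nuclear DNA sensor, was 11.36 against 11.57 in MDA-MB231 and 11.07 against 11.16 in Hs578T. PARP14, an ADP-ribosyltransferase, was 9.12 against 9.20 in MDA-MB231 and 9.19 against 9.54 in Hs578T. These 3 were lower with FBP1 in each line, as were SP100, a nuclear body component, and IFI35, each by less than 0.3 on the log2 scale. XAF1, TRIM22, PARP9 and EPSTI1 had log2 changes between −0.26 and 0.11 in MDA-MB231 and between −0.39 and 0.20 in Hs578T.

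The members were also set out by their promoters. The 22 measured members with a match to the response element had median changes of −0.194 in MDA-MB231 and −0.00773 in Hs578T. The 10 with a listed promoter and no match had −0.175 in MDA-MB231 and −0.0821 in Hs578T. TLR3, BST2, IFI44 and IFI44L, the 4 members at least 1.5-fold lower in Hs578T, all had a match, as did IFI27, which was higher. GBP2, also higher, had no listed promoter. With 22 members holding a match and 10 without, most measured members with a listed promoter had one. These are descriptions, and the difference between the promoter groups was not tested.

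**Figure D3:**
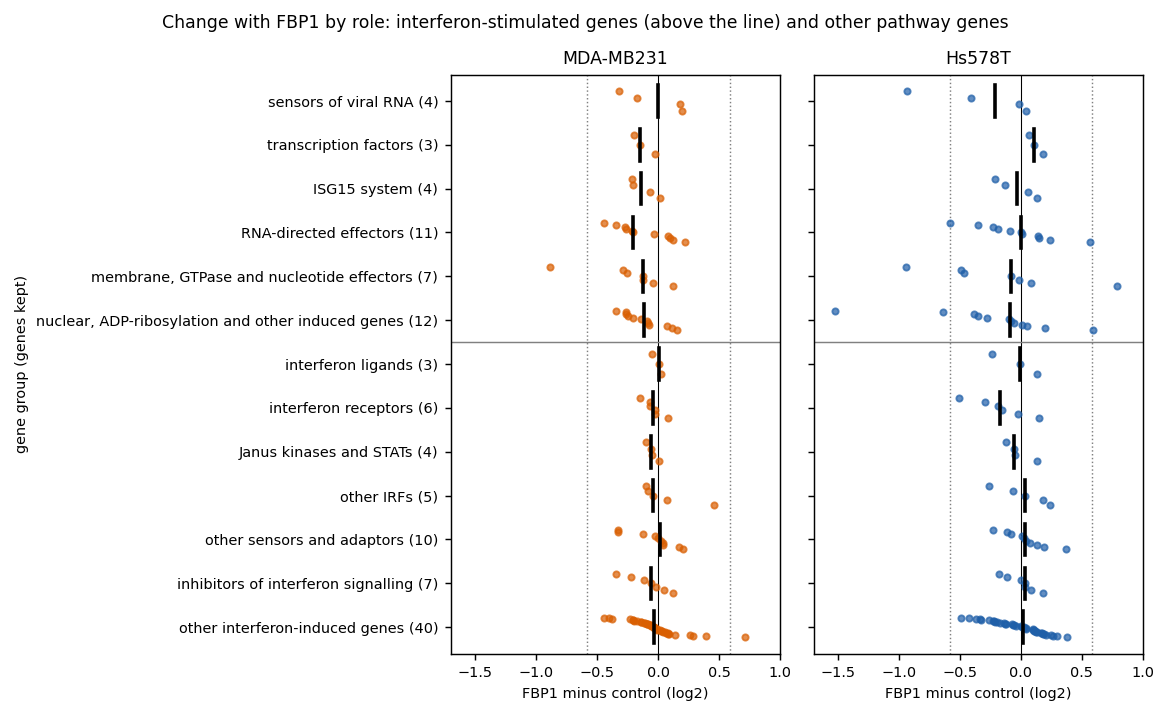
Log2 change between FBP1 and control for each gene, in MDA-MB231 on the left and Hs578T on the right, with 1 row per gene group and the number of genes kept in brackets. Black bars are medians, dotted lines mark 1.5-fold, and the 6 rows above the grey line are the interferon-stimulated genes; all 7 receptor, kinase, ligand and other pathway rows below it have medians within 0.2 of 0 in each line.

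Genes upstream of the response were read from lists that are separate from the 43. Of 21 interferon ligands listed, 5 had no single-gene probe set here and 3 of the other 16 passed the filter. The 3 were the type III genes IFNL1, IFNL2 and IFNL3, with changes between −0.24 and 0.13 in the 2 lines. IFNL3 lay between 9.30 and 9.40 on the 4 arrays, IFNL1 between 7.38 and 7.52 and IFNL2 between 7.55 and 7.83. Passing the filter does not by itself show that a gene is expressed. Among the 6 receptor chains 0 differed by 1.5-fold, and 4 lay below control in both lines, against 24% of all genes. Among these 4 were IFNAR1 (−0.15 in MDA-MB231 and −0.30 in Hs578T) and IFNAR2 (−0.03 and −0.51), the chains of the type I receptor. JAK1, the kinase common to all interferon receptors, stood at 0.01 and −0.05, and JAK2 at −0.05 and 0.13. Of 10 other sensors and adaptors and 7 inhibitors of the pathway, 0 differed by 1.5-fold in either line. Of all genes tested, 0.326% in MDA-MB231 and 1.69% in Hs578T were at least 1.5-fold lower, and 0.301% and 1.39% were that much higher. For lists this small, the receptor chains included, counts of 0 lie near those shares.

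Another 43 interferon-induced genes outside the list, of which 40 were kept, had medians of −0.038 in MDA-MB231 and 0.020 in Hs578T. Below control were 26 of 40 in MDA-MB231 (65%, against 51.8% of all genes) and 18 of 40 in Hs578T (45%, against 45.1%). CXCL10, a chemokine that attracts T cells, was the 1 gene of the pathway lists past 1.5-fold. It was 8.26 with FBP1 against 7.55 in control in MDA-MB231, 1.64-fold higher, and 4.82 against 4.65 in Hs578T, both below the filter level. Over the 75 pathway genes kept, limma called 0 with FBP1. At unadjusted p under 0.05 it gave 3 lower, against 2.43% of all genes, and 4 higher, against 2.71%.

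The second comparison asked how the programme differed between the lines themselves. More members were higher in MDA-MB231 than in Hs578T: limma called 24 of 41 higher in MDA-MB231, against 21.8% of all genes, and 7 of 41 lower, against 19%. At least 2-fold were 15 of the 24 and 4 of the 7, and the share of all genes at 2-fold was not counted. HERC5, IFIT2 and RSAD2, among the 24 and the 15, passed the filter through their MDA-MB231 arrays, so their direction was fixed. The median line difference was 0.53 on the log2 scale over the members and −0.02 over all genes. The arrays of the lines did not overlap for 36 of 41 members (87.8%), against 73% of all genes. These p-values take the FBP1 and control arrays of a line as its replicates, after a term for the construct.

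**Figure D4:**
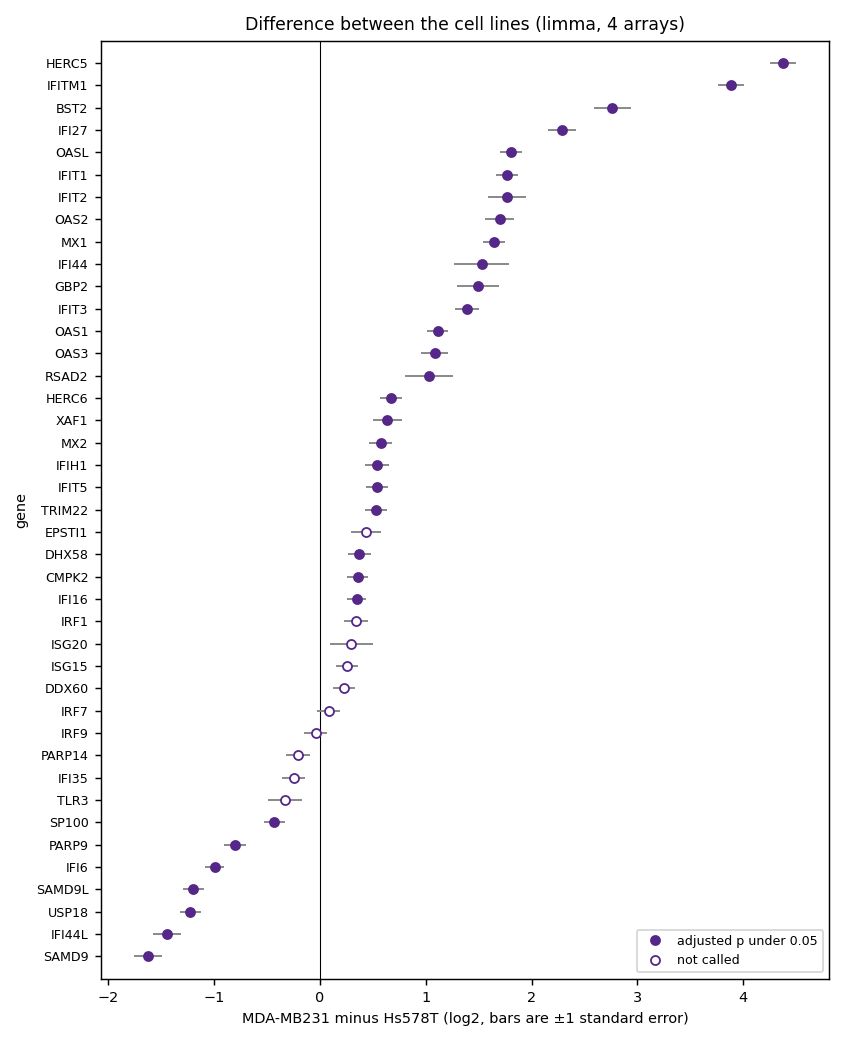
Log2 difference MDA-MB231 minus Hs578T for the 41 measured genes, sorted, from limma over 4 arrays; bars are 1 standard error to each side, and filled points have an adjusted p under 0.05. IFITM1 stands at 3.89 and SAMD9 at the bottom at −1.62; HERC5 at the top and RSAD2 rest on Hs578T values below the filter level, and 24 filled points lie right of 0 and 7 left of it.

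HERC5, the ISG15 ligase, was 9.28 with FBP1 and 9.49 in control in MDA-MB231, against 5.08 with FBP1 and 4.94 in control in Hs578T. HERC5, RSAD2, IFIT2 and EPSTI1 had Hs578T means below the filter level and passed the filter through their MDA-MB231 arrays, so their line differences had to lie on that side. HERC5 and RSAD2 were below it on both Hs578T arrays and are given no fold between lines. Without the 5 members below the filter level on any array, a choice made after the data were seen, 20 of 36 were called higher in MDA-MB231 and 7 of 36 lower. IFITM1 differed by 3.89 ± 0.12 (SE, limma adjusted p = 7.66e-06), BST2 by 2.76 ± 0.17 (0.000107) and IFI27 by 2.29 ± 0.13 (8.35e-05), all higher in MDA-MB231 on each of its arrays. ISG15, on which HERC5 acts, differed by 0.26 ± 0.10 and was not called (limma adjusted p = 0.104). Of the 22 measured members with a match to the response element, 12 were called higher in MDA-MB231 and 4 lower. HERC5 and RSAD2 were among the 12. Of the 10 with a listed promoter and no match at the spacing searched, 5 were called higher and 2 lower. Over all genes the shares were 21.8% and 19%.

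Among the effectors, the IFIT genes IFIT1 (3.41-fold), IFIT3 (2.62-fold) and IFIT5 (1.45-fold) were called higher in MDA-MB231. IFIT2 was called higher as well, but it passed the filter through its MDA-MB231 arrays. Its direction was thus fixed and no fold is given. IFIT1 was 9.25 with FBP1 and 9.15 in control in MDA-MB231, against 7.50 with FBP1 and 7.36 in control in Hs578T. All 4 OAS-family genes were called too, OASL at 3.49-fold, OAS2 at 3.24-fold, OAS1 at 2.16-fold and OAS3 at 2.12-fold. OASL was 9.13 with FBP1 and 9.34 in control in MDA-MB231, against 7.39 with FBP1 and 7.48 in control in Hs578T, so the lines did not overlap. MX1 was 3.12-fold higher (limma adjusted p = 0.000115) and its neighbour MX2 1.49-fold (0.00812). GBP2 was 2.81-fold, XAF1 1.56-fold and HERC6 1.59-fold higher. Of the 11 RNA-directed effectors 8, IFIT2 among them, were higher in MDA-MB231, 2 (SAMD9 and SAMD9L) lower and 1 (ISG20) not called. Of the 7 membrane, GTPase and nucleotide effectors measured all 7 were higher. Over all genes 21.8% were called higher and 19% lower. RSAD2, 1 of these 7, passed the filter through its MDA-MB231 arrays, so its direction was fixed too.

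The 7 members lower in MDA-MB231 were SAMD9 (3.08-fold), IFI44L (2.72-fold), USP18 (2.34-fold), SAMD9L (2.29-fold), IFI6 (1.99-fold), PARP9 (1.75-fold) and SP100 (1.35-fold), with limma adjusted p between 0.000292 for SAMD9 and 0.0145 for SP100. Adjacent relatives could differ in direction. IFI44 was 2.89-fold higher in MDA-MB231 (line difference 1.53 ± 0.26, adjusted p = 0.00525), whereas IFI44L beside it was lower (−1.44 ± 0.13, adjusted p = 0.000436). The IFI44 difference depended on the Hs578T arrays, and with a cell line term alone it was 0.77 without the Hs578T FBP1 array and 2.29 without the Hs578T control array. SAMD9 and SAMD9L were both lower. HERC6 was higher, as was the adjacent HERC5, but HERC5 passed the filter through its MDA-MB231 arrays, so its direction was fixed.

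The 3 measured transcription factors were not called between lines, with IRF9 at −0.04 ± 0.11, IRF7 at 0.08 ± 0.11 and IRF1 at 0.34 ± 0.12 (limma adjusted p = 0.0616). TLR3 (−0.33 ± 0.16) and DDX60 (0.23 ± 0.11) among the sensors, and ISG20 among the RNA-directed effectors, were not called either. Nor were PARP14, IFI35 and EPSTI1 of the nuclear, ADP-ribosylation and other induced members. A p that misses the threshold does not show that the lines are alike for these genes. Without the MDA-MB231 FBP1 array, or without the MDA-MB231 control array, and with a cell line term alone, 15 members in place of 24 were called higher in MDA-MB231. IFI44, IFIH1, DHX58, IFIT5, MX2, CMPK2, IFI16 and XAF1, and SP100 among those lower, lost the call in both cases, IFI44 with limma adjusted p = 0.124 without the MDA-MB231 FBP1 array and 0.201 without the MDA-MB231 control array.

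Upstream in the pathway, of 6 receptor chains limma called 4 lower in MDA-MB231, against 19% of all genes, and 0 higher, against 21.8%. The lower ones were led by IFNGR1 (−0.79 ± 0.10, limma adjusted p = 0.00162), IFNAR1 (−0.64 ± 0.10, 0.00335) and IFNAR2 (−0.57 ± 0.14, 0.0205). IFNLR1 (0.28) and IL10RB (−0.07) were not called. JAK2, the kinase of the type II receptor, was 4.67-fold lower in MDA-MB231 (7.89 with FBP1 and 7.94 in control, against 10.21 with FBP1 and 10.07 in control in Hs578T, adjusted p = 3.85e-05), and JAK1 1.24-fold lower, whereas the kinase gene TYK2 differed by 0.06 and was not called (limma adjusted p = 0.664). Of the sensors, the DNA sensor gene CGAS and the RNA sensor gene RIGI were each 3.49-fold higher in MDA-MB231. The DNA sensor gene AIM2 was 9.62 with FBP1 and 9.96 in control in MDA-MB231, against 5.32 with FBP1 and 4.95 in control in Hs578T, where both arrays lay below the filter level, so no fold is given. The inhibitor genes SOCS1 (1.47-fold), PTPN11 (1.35-fold) and PIAS1 (1.20-fold) were higher in MDA-MB231.

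Among the other interferon-induced genes, limma called 15 of 40 higher in MDA-MB231, against 21.8% of all genes, and 10 of 40 lower, against 19%. Their median line difference was −0.01. CD274, which encodes the checkpoint ligand PD-L1, was 5.09-fold and IFITM2 2.68-fold higher. CXCL10, CXCL11 and GBP4 were also called higher, but each lay below the filter level on both Hs578T arrays. They passed the filter through MDA-MB231, so their direction was fixed and no fold is given. IDO1, which breaks down tryptophan, was 5.26-fold, APOL2 2.66-fold and the lysosomal reductase gene IFI30 2.30-fold lower. The difference between the members' 24 of 41 and these 15 of 40 was not tested.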

How the data were processed

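Total RNA of 4 cultures was measured on Affymetrix arrays, 1 per line and construct, grouped by the source names in the labels. The authors deposited log2 expression values of 33297 probe sets, made with Affymetrix Expression Console 1.1.2800.28061 per the submitters' processing notes. How the arrays were normalized is not stated in the labels, and the log2 scale was read from the values. The platform annotation gave 19460 probe sets a single gene, of which 19429 matched a current Entrez gene, 1754 several genes and 12083 none. For each of 18417 genes the probe set with the highest mean was taken, and 15946 genes whose mean reached log2 6.16, the 25th percentile over all probe sets, were kept. The tests used limma 3.58.1 (R 4.3.3) on all genes of both lines, modelling line plus construct with an intensity trend, and Benjamini-Hochberg adjusted p-values were called at 0.05. The fit has 1 residual degree of freedom and a prior of 5.04, and its script was tested on simulated data. Tables used Python 3.11.15 and pandas 2.3.3. Within a line, genes were counted by size.

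Members and lists were chosen with earlier results of these data known. All members could be named. Pathway genes were named where they differed 1.5-fold with FBP1, or as up to 3 called line differences each way per list. Others were named to state a limit or to complete a count. Alternatives covered the filter, normalization, probe set averaging, the variance prior, the model terms, left-out arrays and the size threshold.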

Additional observations from a re-analysis of the deposited data

Results flagged for a closer look

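Genes were marked where the 2 lines moved in opposite directions with FBP1 and the changes were at least 1.5-fold apart, given here as the Hs578T change minus the MDA-MB231 change on the log2 scale. With 1 array per group the difference between lines was not tested for any of them. RSAD2 differed by 0.97, with a change of −0.88 in MDA-MB231 and 0.09 in Hs578T. ISG20 differed by 0.84 (−0.27 in MDA-MB231 and 0.57 in Hs578T), and GBP2 by 0.83 (−0.04 in MDA-MB231 and 0.78 in Hs578T), although its second probe set was above control in both lines. IFIT2 differed by −0.70 (0.12 in MDA-MB231 and −0.58 in Hs578T). The DNA sensor gene AIM2 differed by 0.70 (−0.33 in MDA-MB231 and 0.37 in Hs578T). RSAD2 and AIM2 lay below the filter level on both Hs578T arrays, and IFIT2 on the Hs578T FBP1 array.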

How the results depend on the processing

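The counts of members below control, the median changes and the members called between lines kept their direction under another filter, quantile normalization, median centring and averaged probe sets, and limma called 0 members with FBP1 in each of these, without the intensity trend and with the construct term alone (9 of 41 at unadjusted p under 0.05 in the reported fit). Median changes ranged between −0.140 and −0.122 in MDA-MB231 and between −0.0794 and −0.0425 in Hs578T. Members at least 1.5-fold lower depended on the limits chosen. With genes below the 50th percentile left out, where 31 members were tested, they were 0 in MDA-MB231 and 2 in Hs578T. At 2-fold they were 0 and 1, and at a log2 limit of 0.32 they were 4 and 11. Without the 5 members that lie below the filter level on any array (EPSTI1, HERC5, IFI44, IFIT2 and RSAD2), a choice made after the data were seen, they were 0 and 3. With a cell line term alone and each array left out in turn, members called higher in MDA-MB231 numbered 15 to 23 and members called lower 6 to 9; the lone array of a line was assumed to vary like the other line. The line call of DHX58 was lost with centred arrays (limma adjusted p = 0.0566), and with the line term alone MX2 lost its call (0.0583) while IRF1 (0.048) and EPSTI1 (0.0467) gained one.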

Other observations

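IFNE, which encodes interferon epsilon, a type I interferon of epithelium, was looked at after its values were seen. It was 4.28 with FBP1 and 4.18 in control in MDA-MB231, and 5.91 with FBP1 and 6.09 in control in Hs578T. All 4 values lay below the filter level of 6.16, so it entered no test.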
